A study of Mus musculus with 8 samples.

Results

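Chromatin modifiers and remodellers are the enzymes and complexes that write, erase and read marks on histones or move nucleosomes. Those followed here are 54 of the 24341 genes in the table of the series. They were chosen by symbol alone: histone deacetylases (Hdac and a digit), lysine demethylases (Kdm), lysine methyltransferases (Kmt), SWI/SNF and ISWI subunits (Smarca to Smarce and a digit), bromodomain proteins (Brd) and the acetyltransferases Ep300 and Crebbp, with 1 gene of the KDM5 family left out. The symbols gave 11 Hdac, 17 Kdm, 5 Kmt, 12 Smarc and 7 Brd genes beside Ep300 and Crebbp. One Smarc entry, Smarca5-ps, is named as a pseudogene of Smarca5.

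Total RNA, freed of ribosomal RNA, was sequenced from lysates of the heart ventricle of male mice of 12 weeks, in 4 Cre Positive and 4 Cre Negative libraries. The mice of both groups carried floxed alleles of Med13 and Med13l (Med13/13L fl/fl) and ate chow with tamoxifen, and sampling was 4 weeks after tamoxifen. Cre Positive mice differ from Cre Negative mice in the recombinase meant to delete parts of both genes, so the presence of Cre and the deletion cannot be told apart. The promoter that drives Cre is not given in the labels used here, and nothing there says that each library is a separate mouse, so p-values measure only the spread between these libraries. The proteins of Med13 and Med13l take the same place in the kinase module of Mediator, which links transcription factors with RNA polymerase II.

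Acetyl groups on histone tails are placed by acetyltransferases such as p300 and CBP, are bound by bromodomain proteins, and are removed by deacetylases. Most deacetylases of class I act in nuclear corepressor complexes. Those of class IIa hold down MEF2 factors and leave the nucleus when phosphorylated, a step known from mouse heart muscle under stress. Methyl groups on lysines are placed by methyltransferases and removed by demethylases of the LSD type or the JmjC type. SWI/SNF and ISWI complexes use ATP to move nucleosomes, and the paralogues that fill one position in SWI/SNF change as heart muscle matures.

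The promoters of Hdac6 and Hdac8, the 2 members that rose most, and of Hdac11 and Hdac4, which fell most, are shown to set their sequence beside their levels. Each is the window from 250 bases before to 50 bases after the gene start in RefSeq (GRCm38.p6, the build called mm10), written 5′ to 3′ on the strand of the gene. Capitals mark the GC box (GGGCGG), the CCAAT box (CCAAT) and the TATA box (TATAAA), each searched on both strands.
Hdac6 (chrX:7947840-7948139, minus strand): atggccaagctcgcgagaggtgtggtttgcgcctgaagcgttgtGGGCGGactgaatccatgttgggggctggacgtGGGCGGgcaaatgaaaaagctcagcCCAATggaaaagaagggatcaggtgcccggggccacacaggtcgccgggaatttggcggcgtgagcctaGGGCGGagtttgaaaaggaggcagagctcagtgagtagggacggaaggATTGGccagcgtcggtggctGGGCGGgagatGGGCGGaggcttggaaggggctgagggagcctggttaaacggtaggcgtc
Hdac8 (chrX:102505109-102505408, minus strand): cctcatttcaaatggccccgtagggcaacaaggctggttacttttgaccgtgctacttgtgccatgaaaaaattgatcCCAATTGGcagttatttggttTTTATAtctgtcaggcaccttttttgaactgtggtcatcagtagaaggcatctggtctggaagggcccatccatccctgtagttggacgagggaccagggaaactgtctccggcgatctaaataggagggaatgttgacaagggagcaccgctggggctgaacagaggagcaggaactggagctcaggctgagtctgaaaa
Hdac11 (chr6:91156565-91156864, plus strand): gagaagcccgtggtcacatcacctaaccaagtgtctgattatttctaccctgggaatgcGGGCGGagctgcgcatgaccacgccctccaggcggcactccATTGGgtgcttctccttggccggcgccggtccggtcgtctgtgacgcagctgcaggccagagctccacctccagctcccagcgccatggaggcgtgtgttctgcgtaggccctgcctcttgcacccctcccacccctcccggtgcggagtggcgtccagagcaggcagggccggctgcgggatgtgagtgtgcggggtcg
Hdac4 (chr1:92180292-92180591, minus strand): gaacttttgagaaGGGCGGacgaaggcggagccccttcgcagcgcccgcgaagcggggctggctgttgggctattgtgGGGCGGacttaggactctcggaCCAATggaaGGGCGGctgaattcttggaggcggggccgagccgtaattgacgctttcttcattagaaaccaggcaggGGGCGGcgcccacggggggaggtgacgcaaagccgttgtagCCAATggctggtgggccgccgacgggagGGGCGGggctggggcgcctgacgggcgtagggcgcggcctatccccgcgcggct
Hdac6 and Hdac4 each held 5 GC boxes and 2 CCAAT boxes, Hdac11 held 1 of each, and Hdac8 held no GC box, 2 CCAAT boxes and the TATA box. The Hdac8 window held 6 CG pairs, against 20 for Hdac6, 22 for Hdac11 and 32 for Hdac4. The median was 28 over the 53 windows of the 40 members found in the RefSeq table and 7 over all 32851 windows. A GC box stood in 40 of the 53 member windows (75.5%), against 35.7% of all windows, and a CCAAT box in 14 (26.4%), against 37.4%. A loose form of the MEF2 motif was also searched, CTANNNNTAG with any base at each N. It occurred in the windows of Hdac2, Hdac5 and Hdac9, or 5.66% of member windows, against 3.69% of all windows. These matches describe the letters only. Hdac4 starts elsewhere in the table than in RefSeq: its RefSeq window lies beyond the end of its locus in the deposited table, so other start sites may be in use.

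Levels are in FPKM, fragments divided by transcript length and by library size, a scale on which different genes can be set side by side. Estimated depth was 4500000 to 23400000 fragments in Cre Positive and 5480000 to 15200000 fragments in Cre Negative libraries, so a 2 kb transcript at 1 FPKM rested on 9.0 to 46.8 fragments. Counting error alone is therefore large for the members near 1 FPKM. The ribosomal precursor Rn45s parted 5 libraries (396 and 1053 FPKM in Cre Positive 2 and 1, 454 to 904 FPKM in Cre Negative 1, 3 and 4) from 3 (10.3 and 16.0 FPKM in Cre Positive 3 and 4, 14.1 FPKM in Cre Negative 2), and values within each set are given below. Med13 stood at 8.13 ± 0.554 FPKM in Cre Positive and 12.0 ± 2.23 FPKM in Cre Negative libraries and Med13l at 2.52 ± 0.113 FPKM in Cre Positive and 4.92 ± 0.814 FPKM in Cre Negative libraries (SD, n = 4 each), and both were called lower (limma adjusted p = 0.00612 and 3.17e-04). These are levels of whole genes, in which exons that Cre removes are not set apart. Med13 was no longer called with libraries scaled to one FPKM sum (log2 change -0.22, limma adjusted p = 0.169) or within each Rn45s set, where its log2 change was -0.51 in the high set (adjusted p = 0.0529) and -0.37 in the low set (adjusted p = 0.0532).

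The tissue also changed in its marker genes, where 39.2% of all 11685 genes tested were called in either direction. Whether the share of calls in the marker lists differs from that of all genes was not tested. The summed FPKM of 8 cardiomyocyte markers was 15963 to 17593 in Cre Positive and 43481 to 48036 in Cre Negative libraries, and 6 of the 8 fell. Of 10 fibroblast markers 7 rose and 1 fell, with sums of 1201 to 1384 in Cre Positive and 836 to 956 in Cre Negative libraries. Of 8 smooth muscle and pericyte markers 4 rose and 1 fell (sums of 967 to 1413 in Cre Positive and 556 to 690 in Cre Negative libraries). Acta2 alone held 598 to 1006 FPKM in Cre Positive and 149 to 253 FPKM in Cre Negative libraries, and without it these sums overlap. Of 8 endothelial markers 1 rose and 3 fell (sums of 325 to 383 in Cre Positive and 392 to 449 in Cre Negative libraries). Of 8 macrophage markers, 7 of them tested, 4 fell (sums of 93.7 to 124 in Cre Positive and 157 to 184 in Cre Negative libraries). The 8 lymphocyte markers were all too low to test and summed to 0.724 to 2.12 FPKM in Cre Positive and 0.642 to 3.75 FPKM in Cre Negative libraries. No marker of these lists was at the lowest value of the table in all libraries. Genes of the same list also differed. Among cardiomyocyte markers the log2 change was -2.95 for Ryr2 and -0.0053 for Actn2. Among smooth muscle and pericyte markers it was 4.11 for Cnn1 and -0.087 for Myh11. In such bulk tissue fewer cells of a type, less RNA per cell and changes of single genes cannot be told apart. The part of these shifts in the values that follow was not tested.

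A minority of the chromatin genes of the ventricle changed, and their changes were small. Of the 54 members 51 had a mean of at least 1 FPKM and were tested. Kdm4d (listed at 0.01 to 0.016 FPKM in Cre Positive and 0.01 to 0.0236 FPKM in Cre Negative libraries), Smarca1 (0.572 to 1.10 and 0.562 to 0.932 FPKM) and Smarca5-ps (0.0586 to 0.123 and 0.0465 to 0.111 FPKM) were not tested. The fit called 8 members higher and 5 lower in Cre Positive libraries, 25.5% of those tested, where 39.2% of all 11685 genes tested were called (19.7% higher and 19.4% lower). Values of the groups did not overlap for 13 members, again 25.5%, against 38.0% of all genes tested. No member changed by 1 or more on the log2 scale, against 6.32% of all genes, and 4 members (7.84%) changed by 0.5 or more, against 22.4% of all genes. The median absolute log2 change was 0.15 for the members and 0.24 for all genes, at a median level of 8.60 FPKM for the members and 9.29 FPKM for all genes and a median SE of 0.10 and 0.11. The median signed log2 change was -0.035 for the members and -0.0069 for all genes. For 33 of the 38 members not called, the 95% interval of the log2 change lay within 0.5 on either side of zero, and 0 of the 38 had an unadjusted p under 0.05.

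**Figure D1:**
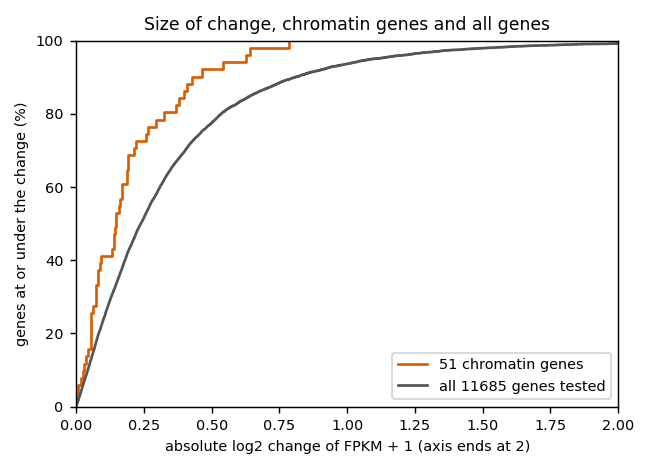
Cumulative share of genes (y axis, percent) at or under a given absolute log2 change of FPKM + 1 between Cre Positive and Cre Negative libraries (x axis), for the 51 chromatin genes (orange) and all 11685 genes tested (grey). The curve of the chromatin genes ends at 0.79, the change of Hdac6, and its median is 0.15, against 0.24 for all genes.

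The scale of the table bears on this split. With each library scaled to the same FPKM sum, the median log2 change was 0.26 over all genes and 0.24 over the members. Wherever libraries are scaled to a sum here, that sum leaves out some genes by the start of their symbols. These starts, such as Rn, Rpl and Rps, were meant for ribosomal RNA, small RNA and ribosomal protein genes. They also match other genes, such as those whose symbols begin with Rnf. Under that scaling 21 members were called higher and 3 lower, so that 87.5% of their calls were higher, against 83.7% of the calls over all genes. On the deposited scale these shares were 61.5% and 50.4%. The 13 members called higher only when scaled were Brd2, Brd7, Brd9, Hdac3, Kdm1a, Kdm4a, Kdm4b, Kdm4c, Kdm5a, Kdm6a, Kdm7a, Smarcd3 and Smarce1, with log2 changes of 0.23 to 0.46. Directions below are on the deposited scale. All 13 called members kept their direction under each of the 21 alternatives in which they were tested, and Hdac6, Hdac11 and Kdm1b also kept their call. In 12 of the 13 the groups do not overlap. For these, leaving out libraries, the Rn45s sets, averaged controls and other pseudocounts could not reverse the direction.

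**Figure D2:**
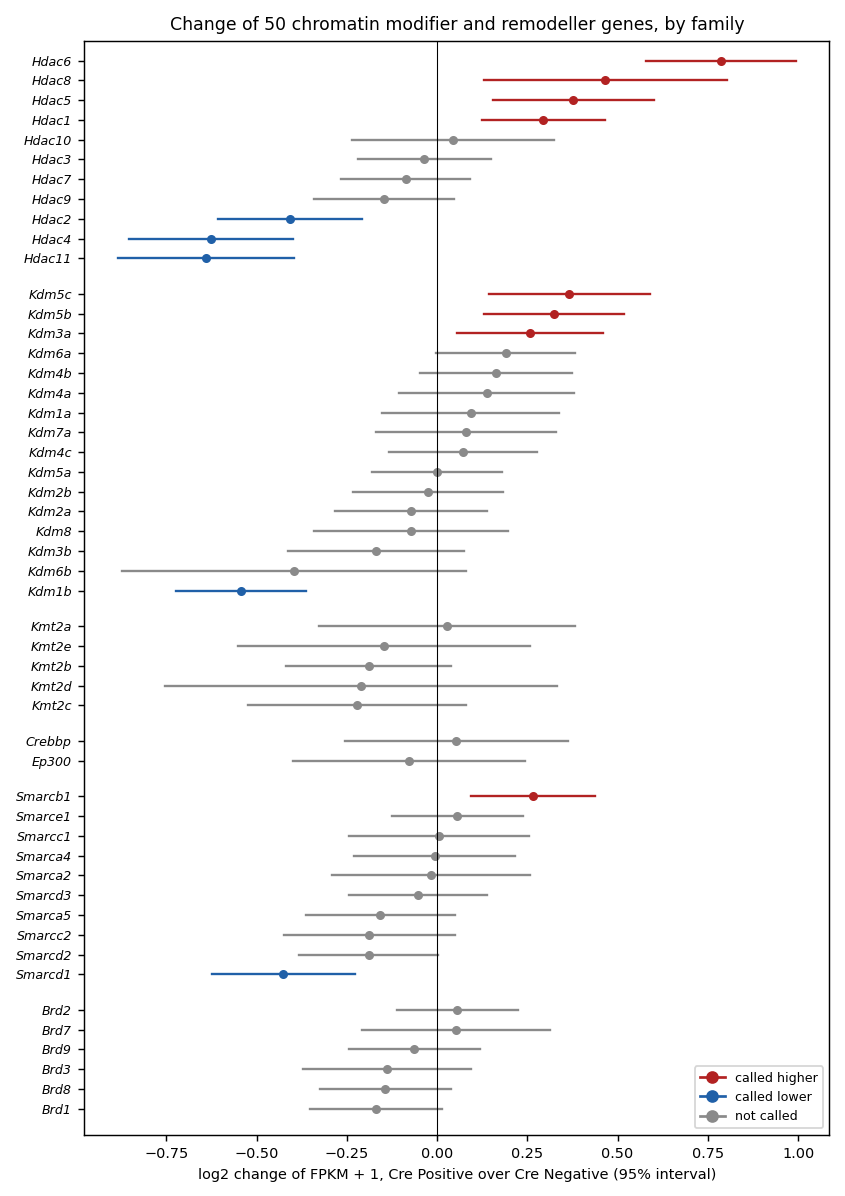
Log2 change of FPKM + 1 in Cre Positive over Cre Negative libraries (x axis) for 50 of the tested chromatin genes (y axis), grouped by family and ordered by change. Points are limma estimates, lines are 95% intervals and colours give the call; 7 of 11 Hdac genes are called, and 6 of the genes of other families.

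Histone deacetylases held 7 of the 13 calls, and within class I and class IIa they went in both directions. Of the 11 Hdac genes 4 rose (Hdac1, Hdac5, Hdac6 and Hdac8) and 3 fell (Hdac2, Hdac4 and Hdac11), and their median log2 change was -0.035. The called share was 63.6%, against 39.2% of all genes tested. Among the 40 other members tested 4 rose and 2 fell, or 15%. Whether the share of calls differs between the families was not tested.

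Of the class I deacetylases, Hdac1, Hdac2 and Hdac3 are nuclear enzymes of corepressor complexes. Hdac1 (chr4:129516104-129542713 in GENCODE M21 on GRCm38, as for the spans below), a catalytic subunit of the Sin3, NuRD and CoREST complexes, stood at 9.10, 8.07, 7.96 and 7.72 FPKM in Cre Positive libraries 1 to 4, against 6.42, 6.42, 6.66 and 6.49 FPKM in Cre Negative libraries 1 to 4. Each Cre Positive library was above each Cre Negative library (log2 change 0.29, SE 0.0768, limma adjusted p = 0.0117), and the call was lost in the high-Rn45s (log2 change 0.35, adjusted p = 0.0610) and in the low-Rn45s libraries (0.25, adjusted p = 0.114). Hdac2 (chr10:36974544-37001889), its close paralogue in the same complexes, stood at 27.7, 31.9, 28.5 and 27.3 FPKM in Cre Positive libraries 1 to 4, against 38.1, 34.5, 37.7 and 44.3 FPKM in Cre Negative libraries 1 to 4. All Cre Positive libraries were below the lowest Cre Negative library (log2 change -0.41, SE 0.0903, limma adjusted p = 0.00498), and scaled to a fixed sum the gene was not called (log2 change -0.11, adjusted p = 0.357). Hdac8 (chrX:102284639-102505359), which also deacetylates cohesin, stood at 2.18, 4.06, 4.05 and 3.15 FPKM in Cre Positive libraries 1 to 4, against 2.36, 2.21, 2.08 and 1.80 FPKM in Cre Negative libraries 1 to 4. Cre Positive library 1 lay within the Cre Negative range, so the groups overlapped, although the gene was called higher (log2 change 0.47, SE 0.15, limma adjusted p = 0.0325). The call of Hdac8 was lost without Cre Positive library 2, 3 or 4 and without Cre Negative library 3 or 4, with adjusted p of 0.0565 to 0.0979. Hdac3, the enzyme of the NCoR and SMRT corepressors, was not called and stood at 27.5 ± 0.865 FPKM in Cre Positive and 28.3 ± 2.82 FPKM in Cre Negative libraries (SD, n = 4 each), a log2 change of -0.0350 (95% interval -0.22 to 0.15). Scaled to a fixed sum, the change of Hdac3 was 0.26 and called.

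The composition of class I shifted with these changes while Hdac2 and Hdac3 stayed its most abundant members. Of the summed FPKM of the 4 genes, Hdac2 made up 42.4% ± 1.74 in Cre Positive and 51.1% ± 4.12 in Cre Negative libraries, and Hdac1 made up 12.1% ± 1.17 in Cre Positive and 8.61% ± 0.471 in Cre Negative libraries (SD, n = 4 each). The sum itself was 67.9 ± 2.47 FPKM in Cre Positive and 75.6 ± 3.15 FPKM in Cre Negative libraries. The log2 ratio of Hdac1 to Hdac2 was -1.70 ± 0.14 in Cre Positive and -2.40 ± 0.14 in Cre Negative libraries, and the groups did not overlap.

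Class IIa deacetylases, which have little catalytic activity of their own and bind MEF2 factors, also went both ways: Hdac5 rose and Hdac4 fell. Hdac4 (chr1:91928779-92195699) stood at 4.39, 4.12, 4.55 and 4.92 FPKM in Cre Positive libraries 1 to 4, against 7.47, 6.27, 8.78 and 7.55 FPKM in Cre Negative libraries 1 to 4. The highest Cre Positive value was under the lowest Cre Negative one, and Hdac4 fell (log2 change -0.63, SE 0.10, limma adjusted p = 7.85e-04). Hdac5 (chr11:102194432-102230166), the most abundant of the class, stood at 24.1, 23.4, 29.3 and 30.1 FPKM in Cre Positive libraries 1 to 4, against 19.3, 21.7, 18.7 and 21.4 FPKM in Cre Negative libraries 1 to 4. It rose in every Cre Positive library (log2 change 0.38, SE 0.10, limma adjusted p = 0.0130). Hdac9 and Hdac7 were not called, with log2 changes of -0.15 (95% interval -0.34 to 0.0477) and -0.0876 (95% interval -0.27 to 0.0902). Hdac9 stood at 9.67 ± 0.503 FPKM in Cre Positive and 10.8 ± 1.13 FPKM in Cre Negative libraries, and Hdac7, which is best known from endothelial cells, at 5.42 ± 0.384 FPKM in Cre Positive and 5.81 ± 0.244 FPKM in Cre Negative libraries (SD, n = 4 each).

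The sum over the 4 class IIa genes was 46.3 ± 3.31 FPKM in Cre Positive and 44.4 ± 2.07 FPKM in Cre Negative libraries, with overlapping groups, while its make-up differed. Hdac5 made up 57.5% ± 3.42 in Cre Positive and 45.6% ± 2.41 in Cre Negative libraries, and Hdac4 made up 9.71% ± 0.250 in Cre Positive and 17.0% ± 2.63 in Cre Negative libraries (SD, n = 4 each). Hdac5 was 5.50 to 6.44 times as abundant as Hdac4 in Cre Positive libraries and 2.13 to 3.46 times in Cre Negative libraries. Of the calls of this class, that of Hdac4 was lost in the low-Rn45s libraries (log2 change -0.34, adjusted p = 0.0736) and that of Hdac5 in the high-Rn45s libraries (log2 change 0.25, adjusted p = 0.106).

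The largest change of any member was that of Hdac6 of class IIb (chrX:7930120-7947889), a mainly cytoplasmic enzyme that deacetylates tubulin and binds ubiquitin. Hdac6 stood at 8.29, 8.33, 10.1 and 9.84 FPKM in Cre Positive libraries 1 to 4, against 4.39, 5.12, 4.74 and 5.22 FPKM in Cre Negative libraries 1 to 4. The lowest Cre Positive value was above the highest Cre Negative one, and the Cre Positive mean was 1.88 times the Cre Negative mean (log2 change 0.79, SE 0.0933, limma adjusted p = 9.51e-05). Its class partner Hdac10, a polyamine deacetylase, was not called and stood at 3.46 ± 0.679 FPKM in Cre Positive and 3.29 ± 0.385 FPKM in Cre Negative libraries (SD, n = 4 each).

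Hdac11 (chr6:91156665-91174692), the sole class IV enzyme, known to remove fatty acyl groups, fell most. It stood at 6.14, 7.67, 7.42 and 8.19 FPKM in Cre Positive libraries 1 to 4, against 14.3, 11.8, 10.7 and 11.4 FPKM in Cre Negative libraries 1 to 4. The groups did not overlap (log2 change -0.64, SE 0.11, limma adjusted p = 0.00105). Genes on the opposite strand overlap 17.9% of the exon bases of Hdac11 and 22.4% of those of Hdac4 in GENCODE M21, and their reads cannot be told apart where counting ignored strand; whether it did is not stated in the labels.

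**Figure D3:**
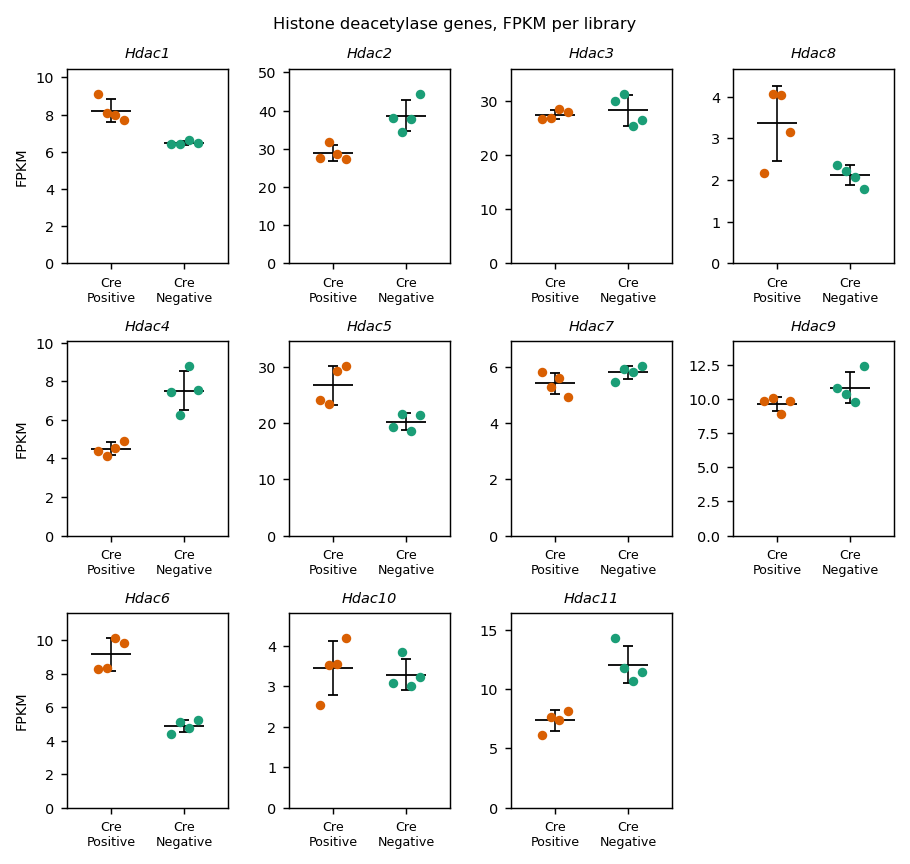
FPKM (y axis, from 0) of the 11 histone deacetylase genes in 4 Cre Positive (orange) and 4 Cre Negative (green) libraries, with group mean and SD as black bars. Points stand in the order of libraries 1 to 4; Hdac6 has the largest change on the log2 scale, 0.79, and Hdac8 shows 1 Cre Positive library at the Cre Negative level.

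Lysine demethylases gave 3 rises and 1 fall among 16 tested genes, a smaller called share than the 39.2% of all genes tested. Their median log2 change was 0.0765. The one that fell was Kdm1b (chr13:47043499-47085279), the LSD type enzyme LSD2, which removes methyl groups from histone H3 lysine 4. Kdm1b stood at 4.92, 5.75, 5.04 and 4.97 FPKM in Cre Positive libraries 1 to 4, against 7.69, 7.71, 8.64 and 7.88 FPKM in Cre Negative libraries 1 to 4. Cre Positive values were all below the Cre Negative values (log2 change -0.54, SE 0.0811, limma adjusted p = 4.43e-04). Exons of Dek on the opposite strand overlap 9.2% of its exon bases. Its relative Kdm1a, or LSD1, the catalytic subunit of CoREST, was not called and stood at 13.3 ± 1.93 FPKM in Cre Positive and 12.3 ± 1.10 FPKM in Cre Negative libraries (SD, n = 4 each), a log2 change of 0.0927 (95% interval -0.15 to 0.34) that was 0.38 and called when scaled to a fixed sum.

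The KDM5 enzymes are JmjC demethylases of the same lysine, and 2 of the 3 measured rose. Kdm5b (chr1:134560171-134635285) stood at 7.09, 6.35, 7.19 and 6.61 FPKM in Cre Positive libraries 1 to 4, against 4.55, 5.34, 5.75 and 5.35 FPKM in Cre Negative libraries 1 to 4. Kdm5c (chrX:152233020-152274535) stood at 5.95, 6.32, 7.64 and 7.74 FPKM in Cre Positive libraries 1 to 4, against 4.79, 5.48, 5.42 and 4.77 FPKM in Cre Negative libraries 1 to 4. Neither gene had overlapping groups (Kdm5b log2 change 0.32, SE 0.0876, limma adjusted p = 0.0141; Kdm5c log2 change 0.37, SE 0.10, limma adjusted p = 0.0152). Without Cre Positive library 3 the call of Kdm5c was lost (adjusted p = 0.0532). Kdm5b was not called within either Rn45s set, at log2 changes of 0.31 in the high set and 0.32 in the low set. Kdm5a, the most abundant of the 3 in each Cre Negative library, was not called and stood at 6.998, 7.96, 8.06 and 7.30 FPKM in Cre Positive libraries 1 to 4, against 6.96, 7.96, 7.88 and 7.51 FPKM in Cre Negative libraries 1 to 4. Its log2 change was 8.1e-05, with a 95% interval of -0.18 to 0.18, and scaled to a fixed sum it was 0.27 and called (adjusted p = 0.0186). In sum the 3 genes came to 21.3 ± 1.25 FPKM in Cre Positive and 17.9 ± 1.26 FPKM in Cre Negative libraries (SD, n = 4 each). Reads may be shared between close paralogues of this family.

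Of the JmjC enzymes for lysines 9 and 36, Kdm3a (chr6:71588972-71632990), which is induced by low oxygen in cultured cells, was called higher. It stood at 8.66, 9.80, 11 and 8.83 FPKM in Cre Positive libraries 1 to 4, against 7.74, 7.26, 8.43 and 7.87 FPKM in Cre Negative libraries 1 to 4. The groups did not overlap, with Cre Positive library 1 just above Cre Negative library 3 (log2 change 0.26, SE 0.0913, limma adjusted p = 0.0466). That call was lost in 13 of 21 alternatives, more than any other, among them leaving out Cre Positive library 2, 3 or 4 or Cre Negative library 1, 2 or 4 (adjusted p of 0.0532 to 0.146). Kdm4a, the most abundant of this class, was not called and stood at 11.3, 12.6, 15.8 and 14.2 FPKM in Cre Positive libraries 1 to 4, against 11.9, 13.1, 12.8 and 10.6 FPKM in Cre Negative libraries 1 to 4. Kdm2a, Kdm2b, Kdm3b, Kdm4b, Kdm4c and Kdm8 were not called either, with log2 changes of -0.17 to 0.16; scaled to a fixed sum, Kdm4a (0.42), Kdm4b (0.44) and Kdm4c (0.34) were called higher.

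The lysine 27 demethylases pointed apart without a call. Kdm6a, or UTX, a subunit of the Kmt2c and Kmt2d complexes, stood at 6.85, 7.36, 6.78 and 6.95 FPKM in Cre Positive libraries 1 to 4, against 6.39, 5.71, 6.68 and 5.28 FPKM in Cre Negative libraries 1 to 4. It was higher in every Cre Positive library, yet not called (log2 change 0.19, SE 0.0869, limma adjusted p = 0.110). Scaled to a fixed sum, Kdm6a was called higher (log2 change 0.46, adjusted p = 0.00206). Kdm6b, or JMJD3, stood at 1.66, 1.43, 0.947 and 1.33 FPKM in Cre Positive libraries 1 to 4, against 2.00, 0.998, 3.44 and 2.33 FPKM in Cre Negative libraries 1 to 4. The Cre Negative libraries spanned 0.998 to 3.44 FPKM and covered the Cre Positive values of 3 libraries (log2 change -0.40, SE 0.21, limma adjusted p = 0.172). Without Cre Negative library 2, the lowest of its group, Kdm6b was called lower (log2 change -0.60, adjusted p = 0.0157). Kdm7a, a relative that acts on lysines 9 and 27, was not called (log2 change 0.0807, SE 0.11, limma adjusted p = 0.607), except when scaled to a fixed sum (0.35).

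None of the 5 genes of the KMT2 family was called by limma, and the Cre Negative SD was over 1 FPKM for Kmt2a, Kmt2c, Kmt2d and Kmt2e. The most abundant, Kmt2c, an enhancer enzyme, stood at 7.61, 8.91, 8.68 and 8.90 FPKM in Cre Positive libraries 1 to 4, against 10.3, 8.01, 13.6 and 9.17 FPKM in Cre Negative libraries 1 to 4. Cre Negative library 3 was highest and the groups overlapped (log2 change -0.22, SE 0.14, limma adjusted p = 0.228). Kmt2d, its partner at enhancers, stood at 4.28, 2.95, 2.77 and 3.35 FPKM in Cre Positive libraries 1 to 4, against 4.15, 2.02, 6.92 and 4.00 FPKM in Cre Negative libraries 1 to 4. The highest and the lowest Kmt2d value of the 8 libraries were both Cre Negative (log2 change -0.21, SE 0.24, limma adjusted p = 0.531). Kmt2a, or MLL1, averaged 4.22 ± 0.134 FPKM in Cre Positive and 4.25 ± 1.49 FPKM in Cre Negative libraries, Kmt2b averaged 1.74 ± 0.228 FPKM in Cre Positive and 2.12 ± 0.208 FPKM in Cre Negative libraries, and Kmt2e averaged 8.41 ± 0.792 FPKM in Cre Positive and 9.75 ± 3.29 FPKM in Cre Negative libraries (SD, n = 4 each). The median of the 5 log2 changes was -0.19, and the intervals of Kmt2c, Kmt2d and Kmt2e reached -0.52, -0.75 and -0.55, so that falls of this size are within the error.

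The acetyltransferases p300 and CBP, coactivators of many cardiac transcription factors, were not called. Crebbp stood at 11.5, 10.7, 11.3 and 12.9 FPKM in Cre Positive libraries 1 to 4, against 11.04, 8.58, 15.01 and 10.7 FPKM in Cre Negative libraries 1 to 4. Ep300 stood at 6.86, 7.03, 6.37 and 6.99 FPKM in Cre Positive libraries 1 to 4, against 7.17, 5.66, 10.4 and 6.47 FPKM in Cre Negative libraries 1 to 4. In both genes Cre Negative library 3 was highest and Cre Negative library 2 lowest of the 8 libraries. The log2 change was 0.0531 (95% interval -0.26 to 0.36) for Crebbp and -0.0785 (95% interval -0.40 to 0.24) for Ep300.

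The ATPases Smarca2, Smarca4 and Smarca5 were not called by limma. Smarca2, or BRM, stood at 25.6, 20.6, 19.1 and 18.9 FPKM in Cre Positive libraries 1 to 4, against 21.1, 17.7, 25.2 and 21.2 FPKM in Cre Negative libraries 1 to 4. Smarca4, or BRG1, the alternative ATPase of SWI/SNF, averaged 18.3 ± 1.24 FPKM in Cre Positive and 18.5 ± 2.39 FPKM in Cre Negative libraries (SD, n = 4 each). Their log2 changes were -0.0177 (95% interval -0.29 to 0.26) and -0.0072 (95% interval -0.23 to 0.21), and the log2 ratio of Smarca2 to Smarca4 was 0.18 ± 0.20 in Cre Positive and 0.19 ± 0.0483 in Cre Negative libraries (exact two-sided permutation p = 0.914). Smarca5, the ISWI ATPase SNF2H, stood at 24.5, 22.8, 20.3 and 19.6 FPKM in Cre Positive libraries 1 to 4, against 24.8, 21.6, 25.9 and 25.2 FPKM in Cre Negative libraries 1 to 4 and was not called (log2 change -0.16, SE 0.0928, limma adjusted p = 0.212). Its reads may be shared with the pseudogene Smarca5-ps.

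Of the 7 core and accessory subunits of SWI/SNF 1 rose and 1 fell, or 28.6%, against 39.2% of all genes tested. Smarcb1 (chr10:75896769-75921617), the core subunit SNF5, stood at 13.95, 13.7, 14.7 and 14.1 FPKM in Cre Positive libraries 1 to 4, against 11.4, 13.0, 10.7 and 11.3 FPKM in Cre Negative libraries 1 to 4. The Cre Positive libraries lay above all controls (log2 change 0.27, SE 0.0774, limma adjusted p = 0.0199). That call was lost without Cre Positive library 3, without Cre Negative library 1 and without Cre Negative library 4 (adjusted p of 0.0522 to 0.0661). Smarcd1 (chr15:99702129-99713991), or BAF60A, stood at 5.81, 5.93, 6.90 and 6.15 FPKM in Cre Positive libraries 1 to 4, against 7.87, 9.29, 9.43 and 8.14 FPKM in Cre Negative libraries 1 to 4. It was lower in each Cre Positive library (log2 change -0.43, SE 0.0891, limma adjusted p = 0.00355), and scaled to a fixed sum it was not called (log2 change -0.16, adjusted p = 0.182). Opposite-strand genes overlap 12.7% of its exon bases.

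Smarcd3, or BAF60C, the paralogue of Smarcd1 known as a partner of cardiac transcription factors in the mouse embryo, was the most abundant of its trio. Smarcd3 stood at 29.4, 26.6, 31.6 and 28.0 FPKM in Cre Positive libraries 1 to 4, against 32.2, 31.8, 29.4 and 26.7 FPKM in Cre Negative libraries 1 to 4. The groups overlapped (log2 change -0.0529, SE 0.0860, limma adjusted p = 0.663); scaling to a fixed sum turned the change to 0.24, which was called, and 48.2% of its exon bases overlap Chpf2 and a microRNA gene on the other strand. Of the summed FPKM of the trio, Smarcd1 made up 14.1% ± 0.798 in Cre Positive and 17.8% ± 1.31 in Cre Negative libraries (SD, n = 4 each). Smarcd2 was not called (log2 change -0.19, SE 0.0870, limma adjusted p = 0.112). Smarce1, an accessory subunit and the most abundant of the 7 over all libraries, averaged 30.5 ± 2.36 FPKM in Cre Positive and 29.3 ± 1.93 FPKM in Cre Negative libraries (SD, n = 4 each), with a log2 change of 0.0558 (95% interval -0.13 to 0.24) that was 0.35 and called when scaled to a fixed sum. Smarcc1 and Smarcc2, the scaffold subunits BAF155 and BAF170, had log2 changes of 0.00622 (95% interval -0.24 to 0.26) and -0.19 (95% interval -0.43 to 0.0488).

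**Figure D4:**
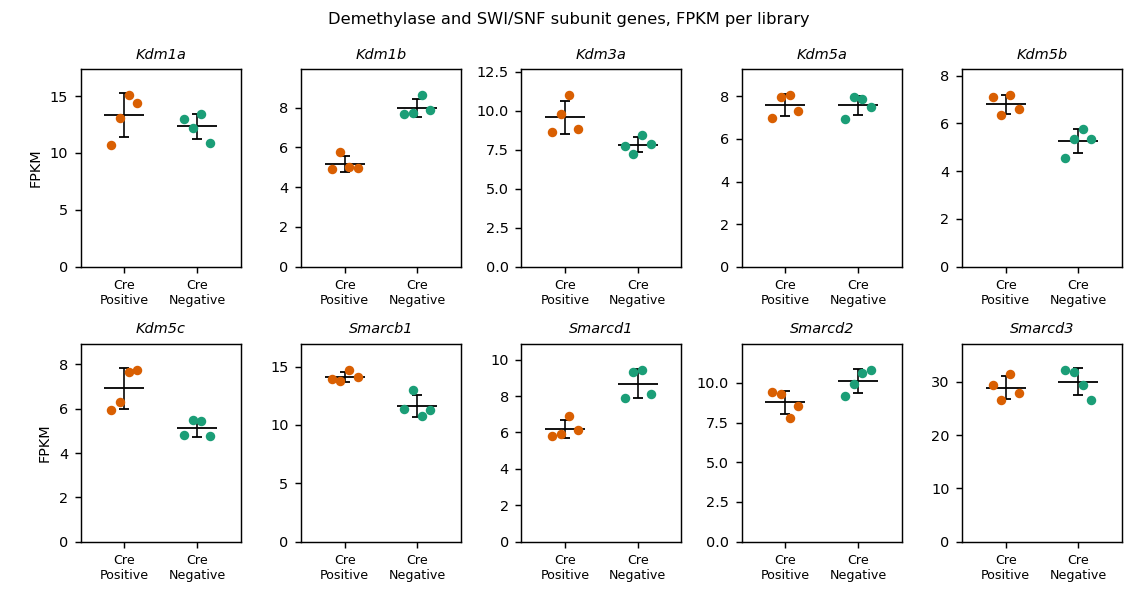
FPKM (y axis, from 0) of 6 demethylase and 4 SWI/SNF subunit genes in 4 Cre Positive (orange) and 4 Cre Negative (green) libraries, with group mean and SD as black bars. Points stand in the order of libraries 1 to 4. Kdm1b and Smarcd1 are lower and Kdm5b, Kdm5c and Smarcb1 higher in each Cre Positive library, while Kdm5a and Smarcd3 overlap between the groups.

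Bromodomain proteins, readers of acetylated histones, gave no call by limma among 7 genes. Brd2, of the BET class, stood at 23.1, 20.3, 21.2 and 21.9 FPKM in Cre Positive libraries 1 to 4, against 20.3, 19.6, 22.6 and 20.6 FPKM in Cre Negative libraries 1 to 4, with a log2 change of 0.0562 (95% interval -0.11 to 0.22). Brd7, a PBAF subunit and the most abundant member, averaged 42.9 ± 6.46 FPKM in Cre Positive and 41.1 ± 4.58 FPKM in Cre Negative libraries (SD, n = 4 each), with a log2 change of 0.0530 (95% interval -0.21 to 0.31). Brd1, Brd3, Brd8 and Brd9 had log2 changes of -0.17, -0.14, -0.14 and -0.0633. Scaled to a fixed sum, Brd2 and Brd7 (0.35 each) and Brd9 (0.23) were called higher.

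Balances between paralogues were compared for 8 pairs by exact two-sided permutation tests on the log2 ratio of FPKM + 1, where 0.0286 is the smallest p the design allows. Hdac5 over Hdac4 differed by 1.00 (log2 ratio 2.33 ± 0.11 in Cre Positive and 1.32 ± 0.26 in Cre Negative libraries), Hdac1 over Hdac2 by 0.70, Smarcd3 over Smarcd1 by 0.37 and Smarca1 over Smarca5 by 0.28. Each of these 4 ratios was higher in 4 of 4 Cre Positive libraries than in any control (exact p = 0.0286, adjusted p = 0.0571 over the 8 pairs). For Hdac5 over Hdac4 and Hdac1 over Hdac2 this was fixed by the single genes, which changed in opposite directions without overlap. The tests of these pairs therefore add nothing to the calls of their genes. The ratio of Smarcd3 to Smarcd1 holds Smarcd1, itself called lower (log2 change -0.43), while Smarcd3 was not called (-0.0529). Its test is therefore not separate from the call of Smarcd1. Smarca1 was under 1 FPKM on average, and its plain FPKM ratio to Smarca5 overlapped, at 0.0292 to 0.0449 in Cre Positive and 0.0223 to 0.0375 in Cre Negative libraries. Kdm6a over Kdm6b differed by 0.59 with 1 control inside the Cre Positive range (exact p = 0.0571, adjusted p = 0.0914). Smarcc1 over Smarcc2 differed by 0.19 and Ep300 over Crebbp by -0.13 (exact p = 0.0857 and adjusted p = 0.0980 for each). No pair passed the adjusted threshold of 0.05.

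The called changes had the same direction in both sets of libraries parted by Rn45s, although the low set holds 1 Cre Negative library and the calls rest on these same libraries. For the 12 called members whose groups do not overlap, no other direction was possible. For Hdac6 the log2 change was 0.69 within the high set and 0.84 within the low set. For Hdac11 it was -0.73 within the high set and -0.54 within the low set, and for Kdm1b -0.52 within the high set and -0.54 within the low set. Those of Hdac4 were -0.76 within the high set and -0.34 within the low set, and those of Smarcd1 -0.46 within the high set and -0.45 within the low set. In the 5 high-Rn45s libraries alone 1 of 51 members was called higher (Hdac6) and 5 lower (Hdac2, Hdac4, Hdac11, Kdm1b and Smarcd1). Over all genes tested 26.5% were called in that set. Of the member calls 16.7% were higher, against 50.5% of the calls over all genes. The 7 other rises were not called there, with log2 changes of 0.18 (Kdm3a) to 0.39 (Hdac8). In the 3 low-Rn45s libraries, which hold 1 control, the log2 change was 0.44 for Hdac5, 0.42 for Kdm5c, 0.45 for Crebbp and -0.30 for Hdac2.

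Spread within the control group ran through many members at once. Cre Negative library 3 held the highest control value for 30 of the 51 tested members (58.8%), against 29.9% of all genes tested, and Cre Negative library 2 the lowest for 25 (49.0%), against 29.6%. On the log2 scale, the highest and lowest control libraries differed by 1.78 for Kdm6b, by 1.78 for Kmt2d, by 1.15 for Kmt2e and by 1.02 for Kmt2a. In these 4 genes library 3 was highest and library 2 lowest. Among Cre Positive libraries the same spread was 0.81 for Kdm6b, 0.62 for Kmt2d, 0.30 for Kmt2e and 0.10 for Kmt2a. Members have long transcripts, with a median of 4852 bases for the longest transcript in GENCODE M21 against 3114 bases over all genes tested. Across the 51 members the spread went with transcript length in Cre Negative libraries (Spearman's rho 0.49) but not in Cre Positive libraries (rho -0.15). All members share the same 4 libraries of each group, so these values only describe them. Over the 11635 tested genes with a length the same rho was -0.15 in Cre Negative and -0.20 in Cre Positive libraries. Estimated depth was 5500000 fragments in Cre Negative library 3 and 15200000 fragments in Cre Negative library 2, and the part of depth or RNA quality in this spread was not tested.

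**Figure D5:**
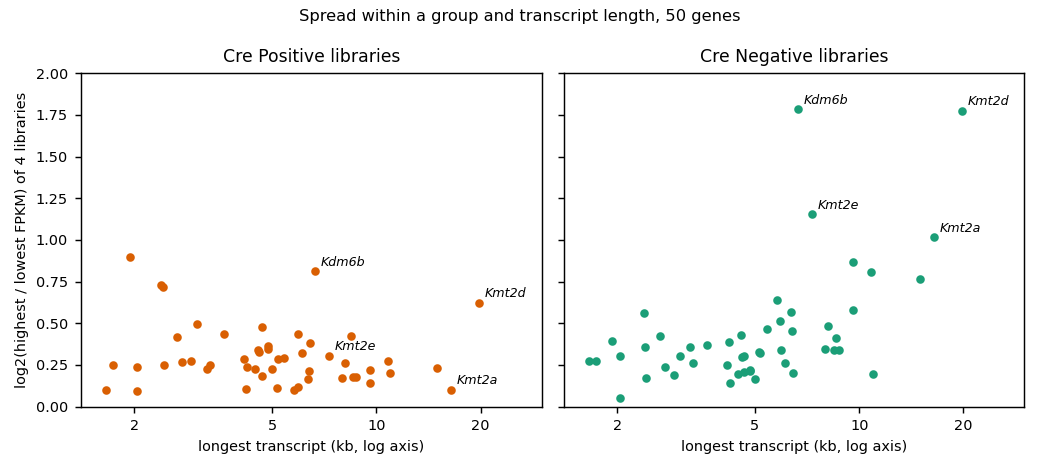
Spread of each of 50 tested chromatin genes within a group, as the log2 ratio of its highest to its lowest FPKM (y axis), against the length of its longest transcript in kb (x axis, log scale), for Cre Positive (left) and Cre Negative libraries (right). In Cre Negative libraries Kdm6b, Kmt2d, Kmt2e and Kmt2a have a spread of 1.02 to 1.78, and in Cre Positive libraries of 0.10 to 0.81.

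Partners of these enzymes, taken from lists of other chromatin genes, also changed in part. Of 7 sirtuins, the class III deacetylases, 3 fell and 0 rose (median log2 change -0.15); the called share, 42.9%, was near the 39.2% of all genes. Sirt5 averaged 17.0 ± 3.27 FPKM in Cre Positive and 31.2 ± 5.78 FPKM in Cre Negative libraries (log2 change -0.84, limma adjusted p = 0.00223), and Sirt3 averaged 18.2 ± 2.36 FPKM in Cre Positive and 30.3 ± 6.90 FPKM in Cre Negative libraries (log2 change -0.69, limma adjusted p = 0.00425). The third was Sirt4, and the 3 that fell are the mitochondrial sirtuins, which act on metabolic enzymes more than on histones. Of 11 further acetyltransferases 2 rose and 0 fell, or 18.2%. Kat2b, or PCAF, averaged 75.3 ± 6.60 FPKM in Cre Positive and 42.6 ± 3.22 FPKM in Cre Negative libraries (log2 change 0.80, limma adjusted p = 5.37e-05), and Kat7, or HBO1, had a log2 change of 0.28.

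Among 21 corepressor partners of deacetylases 6 rose and 2 fell, or 38.1%, close to the 39.2% of all genes. Sap30, a subunit of the Sin3 complex with Hdac1 and Hdac2, averaged 18.6 ± 1.51 FPKM in Cre Positive and 9.44 ± 1.74 FPKM in Cre Negative libraries (log2 change 0.93, limma adjusted p = 2.44e-04). Rcor3, of the CoREST family, averaged 9.37 ± 0.632 FPKM in Cre Positive and 14.4 ± 3.32 FPKM in Cre Negative libraries (log2 change -0.55, limma adjusted p = 0.00854). Of 10 tested genes of polycomb repressive complex 2 and its partners 2 rose and 1 fell, a smaller called share than the 39.2% of all genes. Phf1 had a log2 change of 0.39 and Jarid2 of -0.38. Of 14 partners of the KMT2 enzymes 1 rose and 3 fell, or 28.6%. Wdr5, a core subunit of KMT2 complexes, averaged 9.80 ± 0.327 FPKM in Cre Positive and 13.1 ± 1.15 FPKM in Cre Negative libraries (log2 change -0.38, limma adjusted p = 0.00388), and Dpy30, another such subunit, had a log2 change of -0.36.

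Of 20 tested lysine methyltransferases outside the KMT2 family 2 rose and 2 fell, a smaller called share than the 39.2% of all genes. Setd7, which methylates histone and other proteins, averaged 31.5 ± 1.23 FPKM in Cre Positive and 17.7 ± 2.63 FPKM in Cre Negative libraries (log2 change 0.81, limma adjusted p = 1.42e-04), and Ehmt2, or G9a, an enzyme for lysine 9, had a log2 change of 0.42. Of 6 further JmjC proteins and demethylases Hr rose (log2 change 0.64, limma adjusted p = 0.00222) and Jarid2, which stands in both lists, fell, or 33.3%. Of 16 tested further BAF and PBAF subunits 1 rose and 2 fell, or 18.8%. Ss18 averaged 30.8 ± 3.56 FPKM in Cre Positive and 18.2 ± 1.05 FPKM in Cre Negative libraries (log2 change 0.73, limma adjusted p = 1.63e-04), and Dpf3, a reader subunit known in heart and skeletal muscle, averaged 4.04 ± 0.444 FPKM in Cre Positive and 6.36 ± 0.551 FPKM in Cre Negative libraries (log2 change -0.55, limma adjusted p = 0.00126). Among 19 tested further remodelling ATPases and partners 1 fell (5.26%), Cecr2 (log2 change -0.60, limma adjusted p = 0.00650). Among 6 tested genes of DNA methylation 1 rose (16.7%), the maintenance enzyme Dnmt1 (log2 change 0.60, limma adjusted p = 3.00e-04). None of the 7 genes of P-TEFb and its regulators was called by limma (0 at an unadjusted p under 0.05), with Larp7 the most abundant at 19.3 ± 2.84 FPKM in Cre Positive and 21.4 ± 1.86 FPKM in Cre Negative libraries. Averages are mean and SD of 4 libraries per group.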

How the data were processed

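The authors deposited 1 table of FPKM, with genes by symbol in rows and libraries in columns. The submitters' processing notes name Cufflinks, Bowtie2 2.2.6 and the mouse build mm10. Alignment settings, annotation and use of strand were not given in the sources read. The lowest value is 0.01, and 6 cells of 3 genes hold a word in place of a number, so those genes were left out.

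The fit used log2(FPKM + 1) and limma 3.58.1 under R 4.3.3, with a mean-variance trend, over all 11685 genes that averaged 1 FPKM or more, with Benjamini-Hochberg adjustment over these genes and calls at an adjusted p under 0.05. Changes on this scale understate those of low genes. In 10 simulated tables of 11685 genes with 200 changed, the fit recovered 48.8% of changes of 0.5 on the log2 scale. It recovered 91.2% of changes of 1, at 4.36% false calls. In the measured libraries 4575 of the genes tested were called, far more than the 200 changed in the simulation. The adjustment depends on how many genes change, so these rates do not measure recovery in the fit to the measured libraries. Paralogue ratios were compared by exact permutation over the 70 assignments of libraries. Depth was estimated from the FPKM of single fragments in 3789 genes with 1 transcript of 500 to 4000 bases. Intervals are at 95%. Lengths and exon overlaps are from GENCODE M21 (GRCm38), and coordinates of genes are its spans.

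The library names of Cre Negative 1 and 2 share a stem, yet their log2 ratios over 3249 genes at 20 FPKM or more had an SD of 0.377, against 0.315 to 0.514 for the other control pairs. They were kept as separate libraries, with their average as an alternative chosen after the data were seen.

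Members, gene lists and tests were chosen with earlier results of these data known. Values per library are given for the called members of a class (up to 4, largest change first) and its most abundant member, and for 2 called genes of each other list or, with none called, the most abundant. Further genes were named after their values were seen, and 1 member is not reported here. Alternatives were pseudocounts of 0.1 and 5, filters, scaling, quantile normalization, the Rn45s sets (split at 100 FPKM), a replicate block, removal of a length trend and leaving out each library.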

Additional observations from a re-analysis of the deposited data

Results flagged for a closer look

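Of 108 groups of 4 libraries, 1 per member and genotype, 4 had a library whose gap to the nearest other library took up more of the range of the group than the 95% critical value of Dixon's test, and chance gives about 1 in 20. Kmt2a stood at 6.46 FPKM in Cre Negative library 3, against 3.19 to 3.72 FPKM in the other controls. Kdm1b stood at 5.75 FPKM in Cre Positive library 2, against 4.92 to 5.04 FPKM in the other Cre Positive libraries and under every control. Smarcc2 stood at 24.4 FPKM in Cre Positive library 1, against 19.24 to 20.04 FPKM in the other 3. Kdm4d was listed at 0.0236 FPKM in Cre Negative library 2 and at the lowest value of the table in the other controls, a level too low to count fragments.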

How the results depend on the processing

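Counts of called members depended on the setting more for rises than for falls. On the deposited scale 8 members were called higher and 5 lower. Scaling to a fixed sum gave 21 higher and 3 lower and moved the median of the members to 0.24; there Brd9 (0.23), Hdac3 (0.26) and Smarcd3 (0.24) turned from a small negative to a called positive log2 change, as all genes shifted by 0.26 and calls over all genes went to 5334 higher and 1035 lower, against 2307 and 2268. The 5 high-Rn45s libraries gave 1 higher and 5 lower, where 26.5% of all genes tested were called. In the 3 low-Rn45s libraries the median of the members was 0.0926, and the lone control is assumed to vary like the other group. With the replicate block 5 were called higher and 5 lower. The numbers of the titles do not pair the libraries: deviations of same-numbered libraries correlated at -0.16 to -0.078, and no library correlated best with its own number. Leaving out each library in turn gave 4 to 8 higher and 5 to 6 lower, with a median of -0.068 to 0.017; the lowest count of rises came without Cre Positive library 3. Averaging Cre Negative 1 and 2 gave 7 higher and 5 lower. The low-Rn45s set called Crebbp higher (log2 change 0.45), and removing the length trend called Kmt2c lower (-0.30). With 3 libraries against 4 no exact p of a ratio can be under 0.0571. Depth limits the members near 1 FPKM: a count of 0 allows up to 0.333 FPKM for a 2 kb transcript in the shallowest library, for counting error only.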
